A study of Coryphaena hippurus with 21 samples.

Results

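The slick oil dose series consists of 12 small RNA libraries, of 21 in the study, made from whole larvae of the mahi-mahi, Coryphaena hippurus, sampled 48 hours after fertilization. Embryos were placed shortly after fertilization in clean seawater (control) or in seawater holding 0.5%, 1% or 2% of a HEWAF, the mixture obtained by blending oil with seawater at high energy (high-energy water-accommodated fraction). The oil was slick oil, meaning crude oil collected after weathering on the sea surface, and the water was not renewed. Each of the 4 groups had 3 libraries, named here by their count columns: C4 to C6 for control, L4 to L6 for 0.5%, M4 to M6 for 1% and H4 to H6 for 2%. All groups share the same larval stage, filtered seawater and RNA from pooled whole larvae. The members are the miRNA names listed in all 3 slick oil tables with a count above 0 in all 12 libraries, together with the totals of each miRNA family. They number 107 of the 131 names that the 3 tables share, of 275 names in any slick oil table and of 329 names in the whole study. After the filter on low counts 106 names were tested, and hsa-miR-3074-5p, with a lowest count of 1, was left out.

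MicroRNAs are short RNAs that sit in Argonaute proteins and lower the stability and translation of messenger RNAs that pair with their seed. Many are made in a single tissue, so in whole larvae the set of miRNAs reads out muscle, brain, vessels, blood and skin together. Crude oil is known to slow the embryonic heart of pelagic fish and to cause oedema and small eyes. In RNA from whole larvae, fewer cells of a type and less of a miRNA per cell cannot be told apart. The names carry the prefix of the species whose entry was matched, such as ola for medaka, ssa for salmon or oar for sheep, and none is a mahi-mahi entry. A name therefore stands for a family member of similar sequence, and totals are given for some of the families.

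The libraries held 2822917 to 6979685 counts over the shared names, and the members took 81.3% to 92.6% of these. The shallowest were H6 with 2822917 and H5 with 3649144 counts, both at 2%, and every other library held at least 5291555. Levels below are CPM over the member reads after TMM scaling, and log2 differences come from edgeR's quasi-likelihood test over all 12 libraries with Benjamini-Hochberg adjustment, called at an adjusted p under 0.05. Of the 24 shared names that were not members, many held 0 beside high counts: 67 of their 81 zero counts stood in a name with 100 counts or more elsewhere among the 12 libraries. Among the members, 6 pairs of names had counts within 2% of each other in every library, and 3 of these pairs were identical, so the members carry 101 distinct profiles. On the first principal component of log2 CPM, which held 43.4% of the variance, control libraries lay between -5.61 and -3.11. The 0.5% libraries lay between 0.26 and 3.20, the 1% libraries between -2.47 and 1.13, and the 2% libraries between 2.04 and 5.24. On this axis every 1% library lay above every control, and M6 lay within the range of the 0.5% libraries. No label states whether replicate libraries trace to separate beakers, so the p-values measure only the spread between these libraries, which may be technical.

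Against control, the middle dose had the fewest names called. At 0.5% 26 of 106 names were called against control (24.5%), 13 higher and 13 lower (12.3% each). At 1% 10 names were called (9.43%), 7 higher (6.6%) and 3 lower (2.83%). At 2% 35 names were called (33%), 20 higher (18.9%) and 15 lower (14.2%). Of the names called at any dose, 10 were called at all 3, 14 at 0.5% and 2% but not at 1%, 11 at 2% alone and 2 at 0.5% alone, and none at 1% alone. The mean of the 3 exposed groups differed from control for 29 names (27.4%), 16 higher (15.1%) and 13 lower (12.3%), while the median log2 difference over all 106 names was 0.06. In 17 names (16%) the 9 exposed libraries did not overlap with the 3 controls, 10 above (9.43%) and 7 below (6.6%). The count at 1% moved most with single libraries. It was 24 without M5, 2 without C4, 3 without M6, 5 without C6 or L5 and 6 without L6. The count at 0.5% was 15 without C6 or L5, 16 without L6 and 17 without C4. The count for exposed larvae was 17 without C4 and 17 without C6, and 16 of the 29 names, 11 higher and 5 lower, were called whichever single library was left out.

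**Figure D1:**
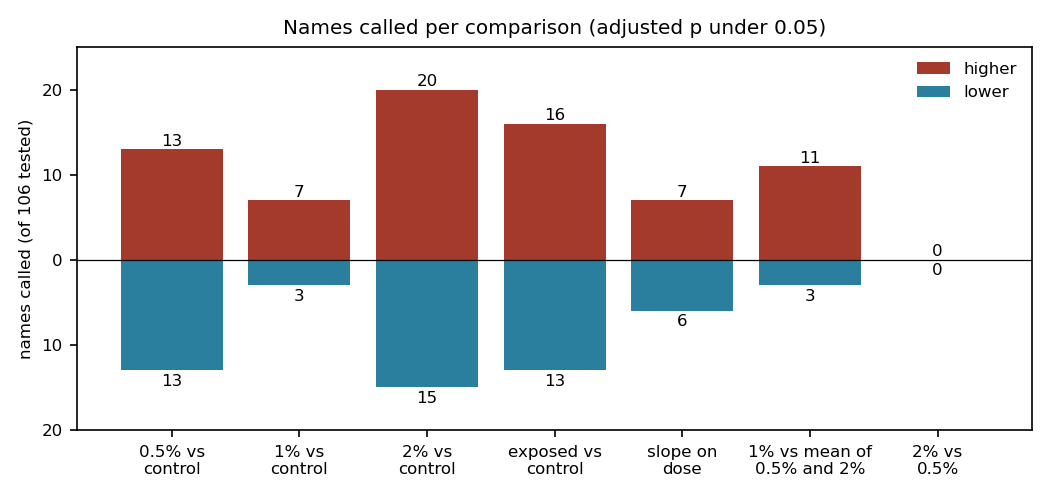
Names called per comparison out of 106 tested (y axis, number of names; red bars upward for higher, blue bars downward for lower), from edgeR's quasi-likelihood test at adjusted p under 0.05. The bars for 0.5% and 2% against control hold 26 and 35 names, the bar for 1% holds 10, and 2% against 0.5% holds 0.

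The 3 miR-23 names rose together in exposed larvae. MiR-23 is made from a cluster with miR-24 and miR-27 that is known from endothelium and smooth muscle. The name oar-miR-23b stood at 175, 206 and 240 CPM in control libraries, 656, 724 and 724 CPM at 0.5%, 565, 405 and 597 CPM at 1%, and 952, 911 and 719 CPM at 2%. All 9 exposed libraries lay above all 3 control libraries, and all 3 libraries at 1% lay below the 6 at 0.5% and 2%. The log2 difference from control was 1.76 ± 0.20 (SE) at 0.5%, 1.33 ± 0.20 at 1% and 2.06 ± 0.21 at 2% (adjusted p = 0.000122, 0.002 and 2.42e-05). Of the other 2 miR-23 names, both had their lowest exposed mean at 1%, while the highest was at 2% in dre-miR-23a-3-5p and at 0.5% in ssa-miR-23b-5p. The name dre-miR-23a-3-5p averaged 240 ± 41.1 CPM in control larvae, 627 ± 24.0 at 0.5%, 508 ± 86.5 at 1% and 746 ± 58.2 at 2% (SD, n = 3 each). The name ssa-miR-23b-5p averaged 199 ± 29.4 CPM in control larvae, 703 ± 115 at 0.5%, 407 ± 151 at 1% and 601 ± 90.2 at 2%. For the mean of the 3 doses against control the 3 names rose by log2 differences of 1.72, 1.37 and 1.48 (adjusted p = 4.2e-05, 8.46e-05 and 0.000482), and each stayed called without any single library. The cluster partners did not pass the test: efu-miR-27b differed by 0.15 ± 0.17 (adjusted p = 0.639) and fru-miR-24-5p by 0.09 ± 0.15 (adjusted p = 0.755).

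The endothelial miRNA miR-126, which lies in an intron of the vessel gene egfl7, rose as well but varied more between libraries. The name tgu-miR-126-5p stood at 7936, 8336 and 7815 CPM in control libraries, 13870, 33480 and 33680 CPM at 0.5%, 15460, 7969 and 31900 CPM at 1%, and 26340, 28850 and 17900 CPM at 2%. Library M5 lay at the level of the controls, and the other 8 exposed libraries lay above them. The mean of the doses exceeded control by 1.52 ± 0.39 (adjusted p = 0.00898), and this call was lost without C4 (adjusted p = 0.0524) or without C6 (adjusted p = 0.0539). The miR-126 total, which holds tgu-miR-126-5p alone, rose by 1.44 ± 0.41 (adjusted p = 0.0265), a call lost without C4, C5 or C6. Across the list of endothelium and smooth muscle, 4 of 12 names tested rose and 0 fell for exposed against control, beside 15.1% and 12.3% over all names. The 4 were the miR-23 names and miR-126, and the median log2 difference of the 12 was 0.17, or 0.19 with an identical pair taken once. Another name of this list, oan-miR-145-5p, was not called against control at any dose. The authors' deposited DESeq2 results had it lower at 2% (log2 fold change -1.11, adjusted p = 2.41e-05). At 0.5% they gave -0.63 (adjusted p = 0.235).

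Among miRNAs of neurons, aca-miR-132-5p was furthest above control. MiR-132 is made with miR-212 from 1 activity-regulated transcript in mammals. The name aca-miR-132-5p had 16.5, 25.2 and 16.9 CPM in control libraries, 69.9, 74.4 and 66.2 CPM at 0.5%, 23.8, 37.5 and 39.9 CPM at 1%, and 96.0, 68.9 and 64.1 CPM at 2%. The libraries at 0.5% and 2% lay far above control and did not overlap with it, while at 1% library M4 fell inside the control range. The log2 difference from control was 1.84 ± 0.27 at 0.5% and 1.97 ± 0.27 at 2% (adjusted p = 0.00029 and 0.000203), and 0.79 ± 0.27 at 1% (adjusted p = 0.0929). The name ssa-miR-212a-5p rose by 0.77 ± 0.21 over the doses (adjusted p = 0.0152), a call lost without C4 (adjusted p = 0.0972) or C6 (adjusted p = 0.0769). The second miR-212 name, aca-miR-212-5p, differed by 0.36 ± 0.23 (adjusted p = 0.323), and the miR-212 family total by 0.43 (adjusted p = 0.252).

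Other neuronal names went different ways. The name ssa-miR-137-5p, of a miRNA known from differentiating neurons, had higher means at each step: 33.6 ± 6.11 CPM in control larvae, 40.2 ± 9.52 at 0.5%, 74.3 ± 32.3 at 1% and 101 ± 38.0 at 2%. Its difference at 2% was 1.59 ± 0.37 (adjusted p = 0.00611), and this was called without any single library. The call for the mean of the doses (log2 difference 0.996, adjusted p = 0.0306) was lost without C4, C6, L5, M4, M6 or H4. At 1% the miR-137 total, which holds this name alone, was 34.5 CPM in M5, inside the control range of 27.2 to 39.1 CPM. In contrast, mdo-miR-128a-5p, abundant in vertebrate brain, fell. It had 32650, 18940 and 20210 CPM in control libraries, 14230, 10720 and 16450 CPM at 0.5%, 10310, 14450 and 8718 CPM at 1%, and 8405, 11260 and 10860 CPM at 2%. No exposed library reached the lowest control, and the mean over doses was lower by 1.04 on the log2 scale (log2 difference -1.04 ± 0.20, adjusted p = 0.00197). The low-level name oha-miR-9-4-5p also fell, with 24.3, 13.9 and 18.1 CPM in control libraries, 7.68, 7.04 and 8.66 CPM at 0.5%, 7.46, 6.79 and 9.41 CPM at 1%, and 9.48, 9.14 and 6.77 CPM at 2%. Its 3 exposed groups were alike, with log2 differences from control of -1.27, -1.24 and -1.13 (adjusted p = 0.00328, 0.0148 and 0.00644, the second lost without C4 at 0.091). Its abundant relative aca-miR-9-5p averaged 408700 ± 48720 CPM in control larvae and differed by -0.26 ± 0.17 (adjusted p = 0.323). Of the 14 neuronal names tested, 3 rose and 2 fell for exposed against control, beside 15.1% and 12.3% over all names, and the median was 0.10 against 0.06 over all names.

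The teleost miRNAs miR-462 and miR-731, which lie in 1 cluster in fish and are known there from hypoxia and virus infection, moved apart. The name ola-miR-462 had 449, 483 and 465 CPM in control libraries, 1147, 2395 and 1962 CPM at 0.5%, 1008, 378 and 1396 CPM at 1%, and 1602, 1251 and 1170 CPM at 2%. M5 lay below every control library and the other 8 exposed libraries lay above every one. The rise over the doses was 1.5 ± 0.34 (adjusted p = 0.00566) and was called without any single library. The miR-462 total, which holds this name alone and was tested among the family totals, rose by 1.42 (adjusted p = 0.014), a call lost without C4 or C6. The name ola-miR-731 averaged 551 ± 68.7 CPM in control larvae, 599 ± 136 at 0.5%, 425 ± 88.3 at 1% and 297 ± 63.9 at 2%. It fell at 2% by 0.89 on the log2 scale (log2 difference -0.89 ± 0.24, adjusted p = 0.011; 0.0501 without C4) and was the name with the smallest p for 2% against 0.5% (log2 difference -1.01 ± 0.24, adjusted p = 0.0994).

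In the blood cell list ssa-miR-144-3p and ola-miR-142 fell, as did the identical tgu-miR-142-5p, and ola-miR-462 rose. This list also holds ola-miR-462 and ola-miR-731, for which no blood cell role is given here. MiR-144 is made with miR-451 in developing red blood cells, and ssa-miR-144-3p had 518, 443 and 577 CPM in control libraries, 293, 215 and 227 CPM at 0.5%, 339, 295 and 331 CPM at 1%, and 215, 176 and 211 CPM at 2%. Every exposed library lay below every control, and every 1% library lay above those at 0.5% and 2%. The fall over the doses was 1.03 on the log2 scale (log2 difference -1.03 ± 0.14, adjusted p = 0.000265). MiR-142 is made across white blood cells, and ola-miR-142, whose counts are identical to those of tgu-miR-142-5p, averaged 49.9 ± 12.3 CPM in control larvae, 23.9 ± 4.86 at 0.5%, 38.5 ± 0.63 at 1% and 27.8 ± 5.11 at 2%. Its difference over the doses was -0.76 ± 0.19 (adjusted p = 0.00898), and this was lost without C4 (0.0524) or C6 (0.0825). The miR-142 total was not called (log2 difference -0.88 ± 0.36, adjusted p = 0.0958). With ola-miR-462 and ola-miR-731 set among the blood cell names and the identical pair taken once, 1 of 6 rose and 2 fell, beside 15.1% and 12.3% over all names. Their median log2 difference was -0.57, against 0.06 over all names. The summed level of the 7 names had a median of 1729 CPM in control larvae, 2850 at 0.5%, 1952 at 1% and 1830 at 2%. No exposed median of the sum lay below that of control larvae. This sum includes ola-miR-462, which was higher at 0.5% by a log2 difference of 1.98, and counts both identical miR-142 names. It therefore does not describe ssa-miR-144-3p or ola-miR-142, which fell. The name tgu-miR-155-5p, of a miRNA of activated immune cells, differed by 0.05 ± 0.20 (adjusted p = 0.894).

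In muscle and heart the 3 names tested differed from each other. MiR-499 lies in a myosin heavy chain gene of heart and slow muscle. The name ggo-miR-499a had 2340, 1720 and 1969 CPM in control libraries, 724, 740 and 825 CPM at 0.5%, 1633, 1602 and 1076 CPM at 1%, and 444, 845 and 718 CPM at 2%. All exposed libraries lay below all controls, and the 1% libraries lay above the other exposed libraries. The difference was -1.40 ± 0.25 at 0.5% and -1.59 ± 0.25 at 2% (adjusted p = 0.00143 and 0.000422), and -0.48 ± 0.24 at 1% (adjusted p = 0.235). The name rno-miR-133b-5p, of a skeletal and cardiac muscle miRNA, averaged 918 ± 311 CPM in control larvae, 1727 ± 515 at 0.5%, 1213 ± 353 at 1% and 2498 ± 928 at 2%, and rose at 2% by 1.45 ± 0.35 (adjusted p = 0.00742). The most abundant muscle name, ssa-miR-206-5p, averaged 315300 ± 88820 CPM in control larvae and differed by 0.10 ± 0.21 (adjusted p = 0.769).

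**Figure D2:**
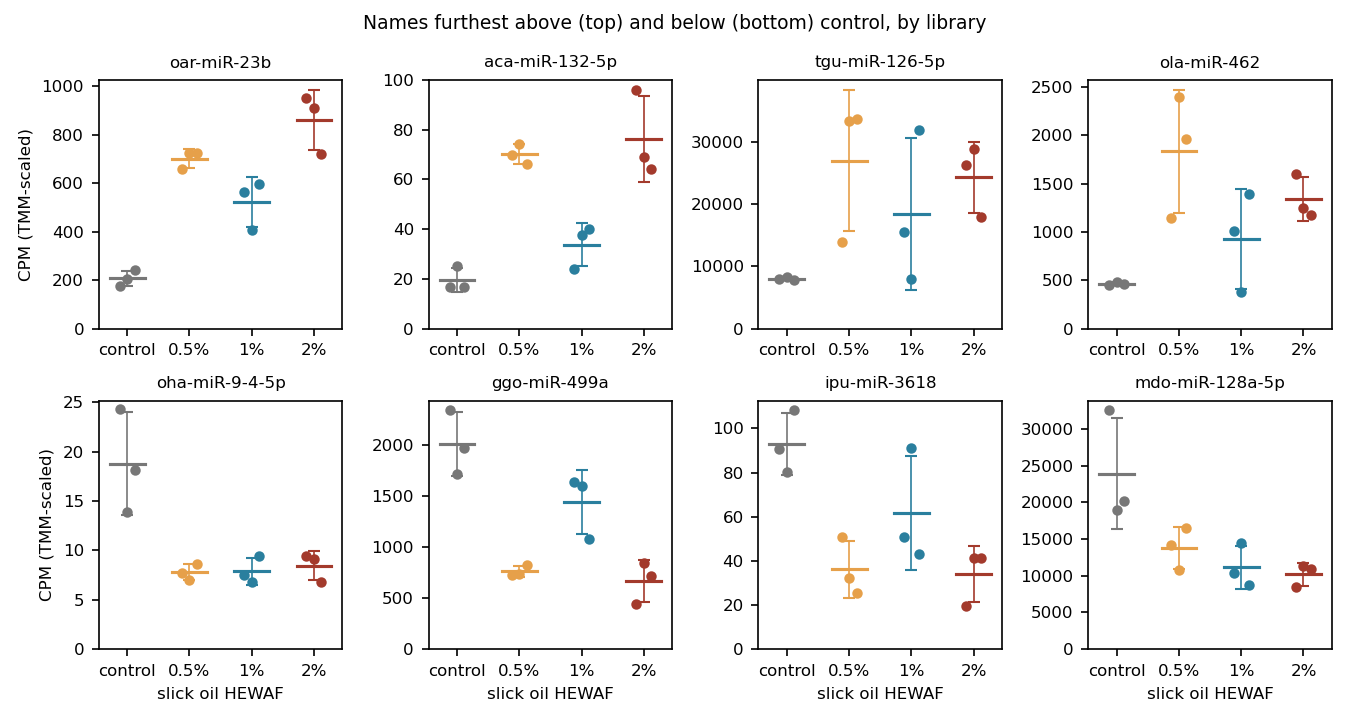
CPM (TMM-scaled, y axis) in each of the 12 libraries (points) by slick oil HEWAF concentration (x axis), with group mean (bar) and SD (whisker), for the 4 names furthest above control (top row) and the 4 furthest below (bottom row). In the top row the 1% group mean lies below those of 0.5% and 2%, and oha-miR-9-4-5p stays between 6.77 and 9.48 CPM in all 9 exposed libraries.

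Of the miR-17-92 clusters, known for promoting cell growth, sha-miR-92a rose. It had 13020, 10150 and 12960 CPM in control libraries, 29230, 33650 and 29970 CPM at 0.5%, 15800, 20820 and 16520 CPM at 1%, and 22850, 31560 and 27980 CPM at 2%. Every exposed library lay above every control, and every 1% library lay below the other exposed libraries. Its difference was 1.36 ± 0.19 at 0.5%, 0.56 ± 0.19 at 1% and 1.19 ± 0.19 at 2% (adjusted p = 0.00029, 0.0929 and 0.000422). The cluster relatives ola-miR-17 and ola-miR-106a rose at 2% only among the tests against control, by 0.88 ± 0.28 and 0.90 ± 0.29 (adjusted p = 0.0277 for both). Both calls were lost without H4 (adjusted p = 0.217 for both), without C4 (0.121 and 0.128) and without C6 (0.0682 and 0.0701), and that of ola-miR-106a also without L4, L5 or M6 (0.0519, 0.0503 and 0.0513). Of 10 names of the clusters, 1 rose for exposed against control and 0 fell, beside 15.1% and 12.3% over all names, and the median was 0.42. The name aca-miR-34b-5p, of a family induced by p53, rose by 1.09 ± 0.27 over the doses (adjusted p = 0.00832), and averaged 28.3 ± 11.6 CPM in control larvae and 58.6 ± 9.59, 51.1 ± 7.13 and 72.2 ± 15.9 CPM at 0.5%, 1% and 2%.

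The 3 miR-181 names tested did not move together. The 5p name ssa-miR-181b-5p rose by 0.90 ± 0.15 and cfa-miR-181b, which has no arm label, by 0.58 ± 0.13 (adjusted p = 0.000851 and 0.00566), while hsa-miR-181b-2-3p of the opposite arm fell, with a difference of -0.66 ± 0.16 (adjusted p = 0.00875; 0.0524 without C4 and 0.0539 without C6). MiR-181 is known from brain, retina and lymphocytes. The name cfa-miR-181b had 6897, 7828 and 7472 CPM in control libraries, 11020, 11310 and 10020 CPM at 0.5%, 11510, 10900 and 11210 CPM at 1%, and 12590, 11000 and 9873 CPM at 2%. Its exposed libraries formed a flat step above control, with group means of 10780, 11210 and 11150 CPM. The more abundant sha-miR-181a-5p and ola-miR-181a-5p, each at 0 in 1 library, were not tested by name. The miR-181 total, which holds them, was not called (log2 difference -0.01 ± 0.23, adjusted p = 0.98). It adds both of these names, whose counts were near-equal in some libraries (137815 and 137362 in L4). The first was at 0 in H5 and the second in L6, and the SD of the total was 4265 CPM in control larvae, 12590 at 0.5% and 14950 at 2%. The total also pools both arms, so it cannot test a difference between arms, and none is shown for the family.

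The name ipu-miR-107b, of a miRNA that lies in pantothenate kinase genes of vertebrates, rose by 1.08 ± 0.30 over the doses (adjusted p = 0.0145; 0.0972 without C4 and 0.064 without C6). Its counts stand on more than 1 line of a table, and with the lines summed the difference was 0.40 (adjusted p = 0.357). Further names that rose were oan-miR-458-5p (1.17 ± 0.21, adjusted p = 0.00106) and ssa-miR-734-5p (1.03 ± 0.20, adjusted p = 0.00147), for which no role is given here. The name oan-miR-458-5p averaged 196 ± 42.3 CPM in control larvae, 455 ± 118 at 0.5%, 417 ± 46.1 at 1% and 450 ± 91.5 at 2%. Among names that fell, ipu-miR-3618 had 90.6, 80.3 and 108 CPM in control libraries, 50.6, 32.0 and 25.6 CPM at 0.5%, 51.0, 91.0 and 42.9 CPM at 1%, and 19.5, 41.1 and 41.4 CPM at 2%. Only M5 among the exposed libraries reached the control range, and the difference over the doses was -1.14 ± 0.28 (adjusted p = 0.00831; 0.0539 without C6).

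Names of the miR-301 family, which lies in a gene of chromosome segregation in mammals, fell, and both carry the 5p label. The name ssa-miR-301a-5p averaged 2769 ± 237 CPM in control larvae, 1677 ± 229 at 0.5%, 1851 ± 511 at 1% and 1403 ± 5.67 at 2% (log2 difference over the doses -0.76 ± 0.16, adjusted p = 0.0035). The name dre-miR-301c-5p fell as well (log2 difference -1.01 ± 0.23, adjusted p = 0.00566; 0.0511 without C4). The other 4 names in the list of miR-130, miR-301 and miR-454 were not called. In the epithelium list sha-miR-200a, of a family that maintains epithelial cells, averaged 7094 ± 508 CPM in control larvae, 4222 ± 848 at 0.5%, 6687 ± 967 at 1% and 3926 ± 751 at 2%. It fell over the doses (log2 difference -0.56 ± 0.17, adjusted p = 0.0201), a call lost without C4 (0.0524), C5 (0.0561) or C6 (0.118). Connective tissue names were divided: oan-miR-214-5p was lower at 0.5% (log2 difference -0.92 ± 0.26, adjusted p = 0.0191; 0.0505 to 0.077 without C4, C6, L4 or L6), and efu-miR-29b, a regulator of collagens, was higher at 2% (1.44 ± 0.44, adjusted p = 0.0218; 0.0679 to 0.119 without C4, C6, H4 or H5). That name had 2.90 ± 1.53 CPM in control larvae and 7.84 ± 3.0 CPM at 2%, so it rests on few counts.

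No name passed the direct test of the highest against the lowest dose. Comparing 2% with 0.5%, edgeR's quasi-likelihood test called 0 of 106 names (0%) after Benjamini-Hochberg adjustment, with 12 names at an unadjusted p under 0.05, and DESeq2 called 2. Without H6 the count was 3 and without M5 it was 2. Among the 16 names that rose over the doses, the 2% minus 0.5% difference had a median of 0.19 and ranged from -0.45 to 1.33. Among the 13 that fell, its median was -0.15, with a range from -0.66 to 0.41. A missed threshold does not show that the doses act alike: for oar-miR-23b the interval of the difference ran from -0.13 to 0.72 (95%), for sha-miR-92a from -0.58 to 0.23, and for ggo-miR-499a from -0.72 to 0.34. For ssa-miR-137-5p it ran from 0.54 to 2.12 and for ola-miR-731 from -1.52 to -0.50, both without an adjusted call.

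A straight line over concentration described few names. The slope, in log2 units per 1% of HEWAF, was called for 13 names (12.3%), 7 higher (6.6%) and 6 lower (5.66%), against 2 higher and 5 lower with total counts as the scaling and 2 higher and 6 lower with TMM factors set without the 5 most abundant names, and the departure from the line was called for 20 (18.9%). The steepest called slopes were 0.84 ± 0.18 for ssa-miR-137-5p, 0.74 ± 0.21 for oar-miR-23b, 0.72 ± 0.21 for efu-miR-29b and -0.67 ± 0.15 for dre-miR-301c-5p (adjusted p = 0.018, 0.0325, 0.0325 and 0.018). None of the 13 slopes was called without every single library in turn: the count was 0 without H4, 1 without C4, 4 without C6 or H5, 7 without C5 and 8 without M6 or H6. For the named slopes the adjusted p without H4 was 0.083, 0.103, 0.242 and 0.0788. Within the 3 exposed groups alone no slope was called. With the 1% group left out, a choice made after the data were seen, 7 were called. The departure from the line also moved with single libraries, with 6 names called without L5, 9 without C4 or L6, 10 without C6, 11 without M4 and 31 without M5.

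Ordered by group means of log2 CPM, 9 of the 106 names moved in 1 direction at every step, 5 upward and 4 downward. Of the 35 names called for any difference among the 4 groups (33%), 3 did so: ssa-miR-137-5p upward and mdo-miR-128a-5p and dre-miR-301c-5p downward. By medians mdo-miR-128a-5p was higher at 2% than at 1%. By medians 1 of the 35 fell at every step and 2 rose at every step. Of the 24 orders that 4 means can take, 10 reverse at both 0.5% and 1%, which is here called a turn at 1%. Orders that change direction at 1% alone are not counted as a turn. Only 2 orders move in 1 direction throughout, and the counts of orders carry no test. In 34 names the mean went up at 0.5%, down at 1% and up again at 2%, and in 32 names it went down, up and down, together 66 of 106 (62.3%). Among the 35 called names 29 turned at 1% (82.9%), and with medians in place of means 27 did. The count of 35 was 13 without C4 and 23 without C6.

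At 1% most of the names called for exposure lay closer to control. Of the 16 names that rose over the doses 13 dipped at 1%, and of the 13 that fell 10 peaked there. The difference of the 1% group from control was the smallest of the 3 doses in 12 of the 16 and in 11 of the 13. In the 16 it had a median of 71.4% of the mean of the 0.5% and 2% differences, from 34.2% to 124.2%. In the 13 this median was 42.0%, from 10.6% to 108.5%. The median log2 differences from control at 0.5%, 1% and 2% were 1.13, 0.93 and 1.45 in the names that rose, and -0.92, -0.48 and -0.98 in those that fell.

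**Figure D3:**
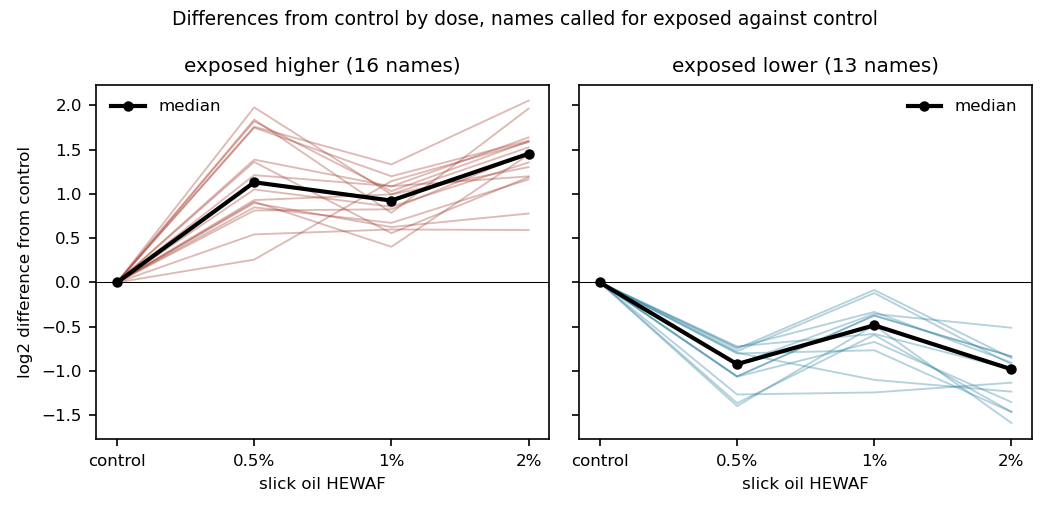
Log2 difference from control (y axis) at each slick oil HEWAF concentration (x axis) for the 16 names that rose (left) and the 13 that fell (right) over the 3 doses, one thin line per name and the median in black. The medians are 1.13, 0.93 and 1.45 on the left and -0.92, -0.48 and -0.98 on the right, with the 1% median nearest to control in both panels.

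The 1% group was then set directly against the mean of the 0.5% and 2% groups, a contrast that uses no control library for its difference. It called 14 of 106 names (13.2%), 11 higher (10.4%) and 3 lower (2.83%) at 1%. In 20 names (18.9%) the 3 libraries at 1% did not overlap with the 6 others, 14 above (13.2%) and 6 below (5.66%). DESeq2 called 20 names for this contrast, 12 higher and 8 lower. In edgeR the count was 10 with names at 0 included and 12 with total counts as the scaling. It was 11 with DESeq2 size factors, with TMM factors set without the 5 most abundant names or with names within 2% counted once. With repeated lines of a name summed it was 15. The 3 lower names were all names that rose with exposure: aca-miR-132-5p (log2 difference -1.12 ± 0.24, 95% interval -1.63 to -0.60, adjusted p = 0.00905), sha-miR-92a (-0.72 ± 0.17, adjusted p = 0.0137) and oar-miR-23b (-0.57 ± 0.17, adjusted p = 0.048; -0.48 and 0.166 with total counts as the scaling). Without M4 none of the 14 was called. In each of the 3 the 1% libraries lay below all libraries at 0.5% and 2%. Of the 11 higher names, ggo-miR-499a, ssa-miR-144-3p, sha-miR-200a and dre-miR-737-5p were among those that fell with exposure. Both calls of dre-miR-737-5p were narrow (adjusted p = 0.0458 for exposed against control and 0.048 for the 1% contrast). They were lost in 13 and 17 of 22 alternative runs. The 1% call of ssa-miR-144-3p (adjusted p = 0.0403) was lost in 11 of 22. For ggo-miR-499a the difference was 1.01 ± 0.21 (adjusted p = 0.00905), with 1633, 1602 and 1076 CPM at 1% against 444 to 845 CPM in the 6 libraries at 0.5% and 2%.

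**Figure D4:**
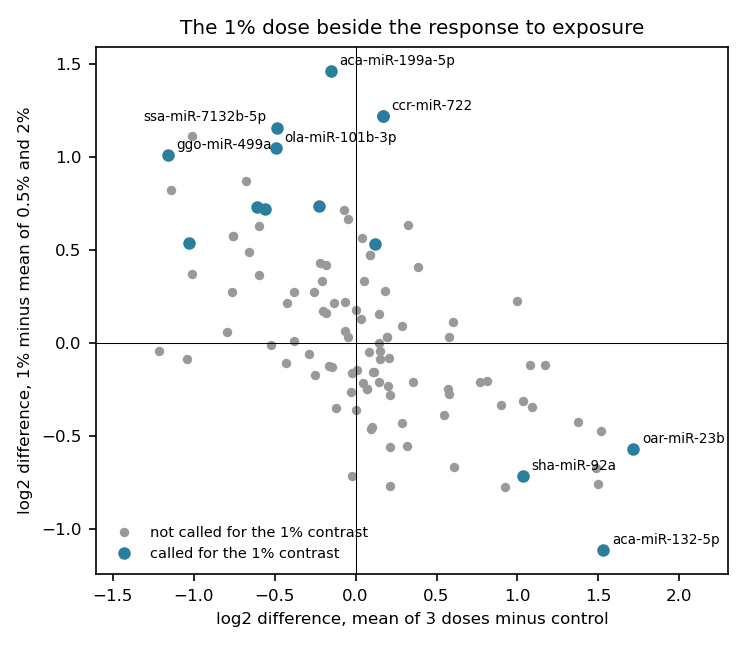
Log2 difference of the 1% group from the mean of the 0.5% and 2% groups (y axis) beside the log2 difference of the mean of the 3 doses from control (x axis), one point per name (106), with blue for names called on the y axis. The axes share the 9 exposed libraries; oar-miR-23b, sha-miR-92a and aca-miR-132-5p lie at the lower right and ggo-miR-499a, called on both axes, at the upper left.

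The other 7 of the 11 higher names were not called for the mean of the doses against control. Of these, ssa-miR-7132b-5p and pma-miR-203a-3p were called lower than control at 2% (log2 differences -0.98 and -0.61, adjusted p = 0.0211 and 0.0285). The first call was lost without C6, H4 or H5, and the second without C4, C6 or H5. MiR-199a is made with miR-214 in mesenchyme, and aca-miR-199a-5p had 36010, 12700 and 22370 CPM at 1%, against 5172, 9323 and 10880 CPM at 0.5% and 10820, 9959 and 5500 CPM at 2%, with 12990, 14400 and 12800 CPM in control libraries. The 1% libraries lay above the other exposed libraries, and M5 lay just under the controls. The contrast was 1.46 ± 0.31 (95% interval 0.79 to 2.13, adjusted p = 0.00905), and none of the 3 doses was called against control. The fish miRNA miR-722, known in zebrafish from its action on the neutrophil gene rac2, was read by ccr-miR-722 and by ssa-miR-722-5p with identical counts. It had 40.2, 23.3 and 56.3 CPM at 1%, against 12.5, 18.1 and 16.2 CPM at 0.5% and 30.8, 10.5 and 14.3 CPM at 2%, with 19.9, 20.3 and 20.5 CPM in control libraries. The groups overlapped because of M5 and H4, and the contrast was 1.22 ± 0.32 (adjusted p = 0.0243).

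MiR-101 is known to act on the histone methyltransferase Ezh2. The name ola-miR-101b-3p had 148, 88.9 and 154 CPM at 1%, against 53.0, 52.3 and 44.8 CPM at 0.5% and 86.7, 79.7 and 71.7 CPM at 2%, with 123, 90.5 and 125 CPM in control libraries. Its 1% libraries lay above the other exposed libraries and overlapped with control, and the contrast was 1.04 ± 0.20 (adjusted p = 0.00905; 0.0619 without M4). Against control it was lower at 0.5% by 1.17 on the log2 scale (log2 difference -1.17 ± 0.24, adjusted p = 0.00295), a call that held without any single library. The miR-101 total, which includes a name at 0 in 1 library, was not called at 0.5% (log2 difference -1.18 ± 0.42, adjusted p = 0.0718). Nor was it called for the 1% contrast (0.97 ± 0.35, adjusted p = 0.0959). The skin miRNA name pma-miR-203a-3p averaged 2104 ± 263 CPM at 1%, against 1398 ± 105 at 0.5% and 1146 ± 261 at 2%, with 1754 ± 230 CPM in control larvae. Its contrast was 0.73 ± 0.17 (adjusted p = 0.0137, and 0.0619 without M4). The miR-203 total also holds ipu-miR-203b, which had 0 counts in 6 libraries, all controls among them, and up to 403860 elsewhere. That total averaged 1653 ± 172 CPM in control larvae, 13920 ± 21950 at 0.5%, 48570 ± 9430 at 1% and 24850 ± 23650 at 2%. It was not called over the doses (log2 difference 3.95 ± 1.36, adjusted p = 0.0587) or for the 1% contrast (adjusted p = 0.405). The name ssa-miR-7132b-5p had 51.7, 24.8 and 24.1 CPM at 1%, against 16.1 to 16.5 CPM at 0.5% and 13.4 to 14.4 CPM at 2% (contrast 1.16 ± 0.24, adjusted p = 0.00905; 0.71 and adjusted p = 0.0619 without M4). The last of the 11, aca-miR-727-5p, was higher by 0.53 ± 0.15 (adjusted p = 0.0403; 0.0529 to 0.11 without C6, M4, M5, H4, H6 or any 0.5% library) and was named after its value was seen.

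**Figure D5:**
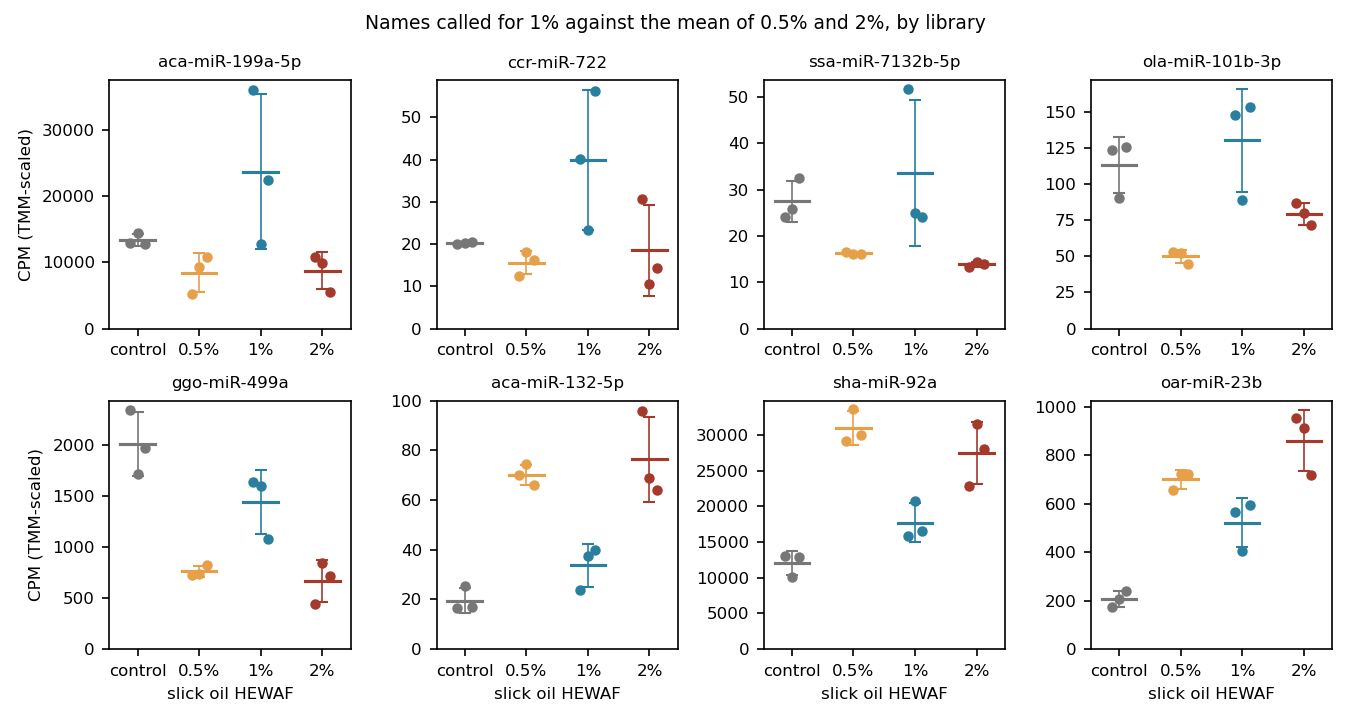
CPM (TMM-scaled, y axis) in each of the 12 libraries (points) by slick oil HEWAF concentration (x axis), with group mean (bar) and SD (whisker), for 5 names that were higher and 3 that were lower at 1% than the mean of 0.5% and 2%. For aca-miR-199a-5p, ssa-miR-7132b-5p, ola-miR-101b-3p and ggo-miR-499a every 1% point lies above those at 0.5% and 2%, and for aca-miR-132-5p, sha-miR-92a and oar-miR-23b every 1% point lies below.

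The calls at 1% rested most on M4. The contrast called 0 names without M4, 25 without M5, of which 12 were among the 14, and 10 without M6, of which 9 were among the 14. Without L4 it called 9, and without C6, L5 or L6 it called 10, as without M6. Without M4 the difference of aca-miR-199a-5p was 1.03 (adjusted p = 0.0894), that of aca-miR-132-5p -0.92 (0.0619), that of sha-miR-92a -0.64 (0.0894), that of ggo-miR-499a 0.91 (0.0619), that of ola-miR-101b-3p 0.94 (0.0619) and that of ssa-miR-7132b-5p 0.71 (0.0619). The call of oar-miR-23b was lost without each of the 12 libraries in turn, at adjusted p = 0.0513 to 0.116, and that of ccr-miR-722 without L4 (0.0525), M4 (0.0894) or M6 (0.122). On the second principal component, which held 20.6% of the variance, M4 and M6 lay at -3.73 and -3.24 and M5 at 1.82. The 2% group was split as well, with H4 at -3.15, H5 at 0.13 and H6 at 2.15. The composition of the libraries moved with both splits. The share of member reads taken by aca-miR-9-5p was 49.0% in M4, 32.5% in M5 and 39.0% in M6, and that of ssa-miR-206-5p was 22.0%, 37.3% and 26.8%. In H4, H5 and H6 the shares were 39.6%, 28.6% and 29.8% for aca-miR-9-5p and 29.7%, 42.1% and 39.3% for ssa-miR-206-5p. The 1% group also had the widest spread, with a median SD of log2 CPM over names of 0.34, against 0.20 at 0.5%, 0.29 at 2% and 0.22 in control larvae. The part of library composition in the turn at 1% was not tested.

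Family totals were summed over all shared names of a family, with names of identical counts taken once. Many families have a single shared name, such as miR-126, and their total then repeats the counts of that name. Against control 15 of 76 totals were called at 0.5% (19.7%), 8 higher (10.5%) and 7 lower (9.21%). At 1% 3 were called (3.95%), 2 higher (2.63%) and 1 lower (1.32%), and at 2% 20 (26.3%), 11 higher (14.5%) and 9 lower (11.8%). For the mean of the doses 18 were called (23.7%), 10 higher (13.2%) and 8 lower (10.5%), with 11 called without C4 and 10 without C6. The miR-23 total averaged 609 ± 81.6 CPM in control larvae, 1871 ± 217 at 0.5%, 1266 ± 257 at 1% and 1945 ± 147 at 2% (log2 difference over the doses 1.45 ± 0.16, adjusted p = 0.000118). The totals of miR-24 and miR-27 were not called, with log2 differences of -0.06 ± 0.19 and 0.08 ± 0.18 (adjusted p = 0.898 and 0.866). The miR-301 total averaged 4240 ± 513 CPM in control larvae, 2453 ± 436 at 0.5%, 2556 ± 965 at 1% and 1804 ± 256 at 2% (log2 difference -0.92 ± 0.21, adjusted p = 0.00896). The miR-132 total rose by 1.73 ± 0.31 (adjusted p = 0.00334), against 1.53 for aca-miR-132-5p alone. It includes ssa-miR-132-3-5p, which had 0 counts in C5, C6, M5, M6, H5 and H6. That name had 60 counts in C4, 88 in M4, 339 to 410 in the 0.5% libraries and 474 in H4. The miR-181 total, which includes 2 names at 0 in some libraries, was not called (log2 difference -0.01 ± 0.23, adjusted p = 0.98).

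At 1% against the mean of 0.5% and 2%, 9 family totals were called (11.8%), 6 higher (7.89%) and 3 lower (3.95%). The 3 lower were miR-132, miR-92 and miR-23 (log2 differences -1.57, -0.75 and -0.59, adjusted p = 0.0182, 0.0342 and 0.0342). The miR-132 total includes ssa-miR-132-3-5p, at 0 in M5, M6, H5 and H6, and aca-miR-132-5p alone differed by -1.12. The 6 higher totals were miR-199, miR-722, miR-7132, miR-499, miR-200 and miR-144, with log2 differences of 1.42, 1.20, 1.11, 0.97, 0.69 and 0.51. Of the 9, only miR-132, miR-23 and miR-722 hold more than 1 shared name, and the names of miR-722 have identical counts. The other totals repeat the counts of a single name and are no separate result. The number of totals called for the 1% contrast was 0 without M4 or without L5 and 3 without L6 or M6. In families with no name at 0 it was 8, 6 higher and 2 lower. The slope was called for 6 totals (7.89%), 2 higher (2.63%) and 4 lower (5.26%), with 0 left without C4, C6 or H4, and 2% against 0.5% for 0 totals (0%), with 8 at an unadjusted p under 0.05 in edgeR; DESeq2 was not run on the totals. Without M6 that count was 1 and without H6 it was 2. By group means 53 of the 76 totals turned at 1% (69.7%) and 5 moved in 1 direction at every step.

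Of the 5 most abundant names, aca-miR-9-5p, ssa-miR-206-5p and ola-miR-21 were not called for exposed against control by edgeR. The name ola-miR-21, of a miRNA raised in many injured tissues, averaged 70050 ± 3509 CPM in control larvae, 63190 ± 1189 at 0.5%, 54350 ± 2739 at 1% and 59600 ± 2540 at 2% (log2 difference -0.25 ± 0.11, adjusted p = 0.121; -0.28 and 0.042 with DESeq2). EdgeR did not call ola-miR-21 against control at any dose. The authors' deposited DESeq2 results had ola-miR-21 lower at 1% (log2 fold change -0.41, adjusted p = 4.87e-05). They gave -0.08 at 0.5% (adjusted p = 0.669) and -0.19 at 2% (adjusted p = 0.247). No name was called for exposed against control among the 5 let-7 names, the 4 Hox cluster names (miR-10 and miR-196), the 4 eye and sensory names, the 5 liver, gut and pancreas names or the 1 miR-430 name tested, beside 27.4% over all names. Within the eye and sensory list chi-miR-182 stood at 2665 CPM in H4 and between 14450 and 23840 CPM in the other 11 libraries. In the liver, gut and pancreas list tgu-miR-217-5p, a pancreas miRNA, rose at 2% alone by 0.55 ± 0.18 (adjusted p = 0.0277; 0.0522 to 0.124 without C4, C6, L5 or H5).

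The authors' deposited table for each dose lists part of the members. At 0.5% the authors' deposited table called 41 of 87 listed members, and those of the other doses called 12 of 65 at 1% and 37 of 83 at 2%. The authors' adjusted p under 0.05 in these deposited tables was taken as a call, and the 3 tables share the control libraries.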

How the data were processed

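The authors deposited whole-number read counts per miRNA name, 1 table for each slick oil dose with its 3 exposed and the 3 control libraries. The names are mature miRNAs, per the file headers. Which aligner, counter and genome were used is not given in the sources used here. The RNA came from pooled larvae, per the labels' protocols. The 3 tables were joined on shared names, and the control columns agreed in all 1353 cells compared. Names repeated within a table (4 extra lines) kept their highest count per library. Column numbers 4 to 6 differ from the replicate numbers in the titles, and columns were therefore assigned to groups only, and 0 columns of other samples were used. The authors also deposited result tables for slick oil. These hold a normalized signal (the mean scaled count of each group), the difference of those means as a score, log2 fold changes, and p-values before and after adjustment, for which the submitters' processing notes name DESeq2.

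Counts were filtered with filterByExpr (minimum count 10, minimum total 15), scaled by TMM and tested with glmQLFit and glmQLFTest in edgeR 4.0.16 under R 4.3.3, in 1 model over the 4 groups. DESeq2 1.42.0 was run as an alternative. The contrasts were each dose, their mean against control, 1% against the mean of 0.5% and 2%, 2% against 0.5%, any difference, a slope on concentration and the departure from it. P-values were adjusted over all names or family totals tested, and log2 CPM used a prior count of 2. Standard errors are the log2 difference over the square root of F, and intervals are 95%. The steps were tested on simulated data.

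The names in the text are up to 12 per direction by size of exposed against control among names called for any difference, up to 6 per direction for the 1% contrast and for the slope with means moving in 1 direction, the 5 most abundant names, and members of tissue and family lists. Family totals were named by the same tests, up to 6 per direction. Other names were chosen after their values were seen. The members and lists were chosen with earlier results of these data known. Alternatives are given in the closing section. The libraries of source oil were not analysed here beyond counting their names.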

Additional observations from a re-analysis of the deposited data

How the results depend on the processing

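Direction was compared for the named results and for every name called as reported against control, for the slope or for the 1% contrast. None of these changed direction where it was called as reported or under the alternative. Family totals were compared only where named, for exposed against control. Other names called only under an alternative were not compared. The uncalled difference of ssa-miR-206-5p ran from -0.035 to 0.291. Leaving out each of the 12 libraries in turn, the number of names called ran from 13 to 45 for any difference, 0 to 15 for the slope, 15 to 35 at 0.5%, 2 to 24 at 1%, 24 to 40 at 2%, 17 to 36 for exposed against control, 0 to 25 for 1% against the mean of 0.5% and 2%, 0 to 3 for 2% against 0.5% and 6 to 31 for the departure from a line. For family totals the ranges were 5 to 22 (any difference), 0 to 8 (slope), 10 to 21 (exposed), 0 to 11 (1% contrast) and 0 to 2 (2% against 0.5%). Single libraries moved any difference to 23 names without C6 and to 9 family totals without C5 or M4, names at 0.5% to 16 without L6, the 1% contrast to 9 names without L4, and the departure from a line to 9 without C4 or L6. The slope called 7 names with total counts as the scaling, 8 with TMM factors set without the 5 most abundant names, 7 with names at 0 included, 7 with the 1% group left out and 0 in the exposed groups alone. At 1% against control 6 names were called with names at 0 included. For 2% against 0.5%, 1 name was called with TMM factors set without the 5 most abundant names and 2 with DESeq2. Among family totals the 1% contrast called 3 when all names of each library's own table were summed, and 2% against 0.5% called 1 by family and arm and 1 in families with no name at 0. By medians, falling at every step held 1 name, falling to 1% and then higher 8, and highest at 0.5% and then falling 5. Total counts as the scaling put the median log2 difference at 1% against control at 0.13, against 0.05 as reported, and changed no direction of a name called as reported. Of 50 named results that were called, 22 were called under every alternative run, and the cause of the other changes was not tested. These counts take sha-miR-92a and tgu-miR-126-5p more than once, as names that rose and as abundant names. They also take the identical names of miR-142 and of miR-722 separately. Names counted as 1 where within 2%, the 1% group left out, families with no name at 0 and the replicate block were alternatives chosen after the data were seen. The count columns carry the numbers 4 to 6 in every group, not those of the titles, so they do not tie libraries together by label. Deviations from the group means correlated above 0.1 in 6 of 18 pairs of the same number (-0.564 to 0.472), and 2 of 12 libraries correlated best with their own number. With the column number as a replicate block, 4 names were called for the slope, 3 at 1% against control and 9 for the departure from a line, and 6 family totals for any difference and 3 for the slope. Names with few counts, such as efu-miR-29b with a lowest count of 8, limit what can be called.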
